A study of Mus musculus with 12 samples.

Results

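The genes of the proteasome were taken by name, as those whose symbol starts with one of the roots Psma to Psmg followed by a digit, after the RefSeq accession of each array probe had been matched to its gene. The rule used no measured value. It found 50 genes with 61 probes among the 32524 genes and unnamed accessions on the array, and 47 of the 50 gave a signal well above background on all 12 arrays, through 58 probes. The RNA was from liver of male C57BL/6 mice that were 30 weeks old and ate chow containing casein, with 6 mice of each genotype and 1 mouse per single-color Agilent array. LKO mice were Phgdh flox/flox and carried a Cre transgene under the albumin promoter, which removes Phgdh exons in hepatocytes and leaves the gene in the other cells of the liver. Floxed mice were littermates with Phgdh flox/flox and no Cre, so both genotypes shared the floxed alleles, and the groups differed in the Cre transgene as well as in the deletion. Phgdh encodes the enzyme that opens the synthesis of serine from a glycolytic intermediate. The comparison asks whether its loss in hepatocytes came with a change in the mRNA of the proteasome, and whether the core, the 19S particle and the immunoproteasome differed in this.

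The proteasome is the protease that degrades proteins tagged with ubiquitin. Its 20S core is a barrel of stacked rings, with alpha subunits (Psma) that gate the entry at the ends and beta subunits (Psmb) in the middle, among which Psmb5, Psmb6 and Psmb7 cut the chain. The 19S particle caps the barrel, and its ATPases (Psmc) unfold the substrate while its other subunits (most of Psmd) bind and remove ubiquitin. Immune cells, and other cells exposed to interferon, use the inducible subunits Psmb8, Psmb9 and Psmb10, which replace Psmb5, Psmb6 and Psmb7 in the immunoproteasome and favor peptides that fit MHC class I. Liver depends on the proteasome for the turnover of enzymes and damaged proteins, and the macrophages and lymphocytes of the liver are rich in the inducible subunits.

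The arrays lay on 3 slides of 4 arrays, and slide 2 alone held both genotypes, with Floxed mice 5 and 6 and LKO mice 1 and 2. Slide 1 held Floxed mice 1 to 4 and slide 3 held LKO mice 3 to 6, so slide and genotype can be told apart in slide 2 only. The difference within slide 2 is given beside many of the results that it moves. Between 21614 and 24252 probes per array were well above background. Values are log2 intensities after quantile normalization over the 12 arrays, with the brightest probe standing for a gene, and a gene was called where the unadjusted p of limma was below 0.05, the criterion of the study's array methods. Of 16915 genes tested, 1413 were called (8.35%), with 832 higher (4.92%) and 581 lower in LKO (3.43%), and the split became 1127 higher and 316 lower when arrays were scaled to their 75th percentile. No gene passed 0.05 after Benjamini-Hochberg adjustment, and the smallest adjusted p of limma was 0.132. Phgdh itself was lower in LKO by limma, with 4.81 to 5.50 in the 6 Floxed and 4.23 to 5.30 in the 6 LKO mice and a log2 fold change of -0.48 (SE 0.177, adjusted p = 0.451), but differed by only -0.05 within slide 2, and whether its probe lies in the deleted exons was not determined here. All 8 hepatocyte markers, Alb and Ttr among them, were well above background on every array, and none was called.

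The measured differences of the proteasome genes between the genotypes were small. Of the 47 genes tested, 2 were called (4.26%), against 8.35% of all genes, and both were lower in LKO, Psmd11 of the 19S lid and Psmd10, a chaperone of 19S assembly. The share called lower, 4.26%, lay near the 3.43% of all genes, and 0 members were called higher, against 4.92%. The ranges of the genotypes overlapped for all 47 genes, while 0.296% of all genes had ranges that did not overlap. No member passed adjustment in limma, where the smallest adjusted p among them was 0.505. Since the RNA was from whole liver, fewer cells of a type and less RNA per cell cannot be told apart in these values.

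The log2 fold changes of LKO relative to Floxed were above 0 for 23 members and below 0 for 24. Their median was -0.00097, against -0.0035 over all genes tested. The median size of the change was 0.031 in the members and 0.088 in all genes, and the median SD within a genotype was 0.122 and 0.222. The 95% interval of limma lay within 0.5 of 0 on the log2 scale for 43 of the 47 members. The 4 genes whose interval reached farther were Psmb2, Psmb8, Psmb9 and Psme3.

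**Figure D1:**
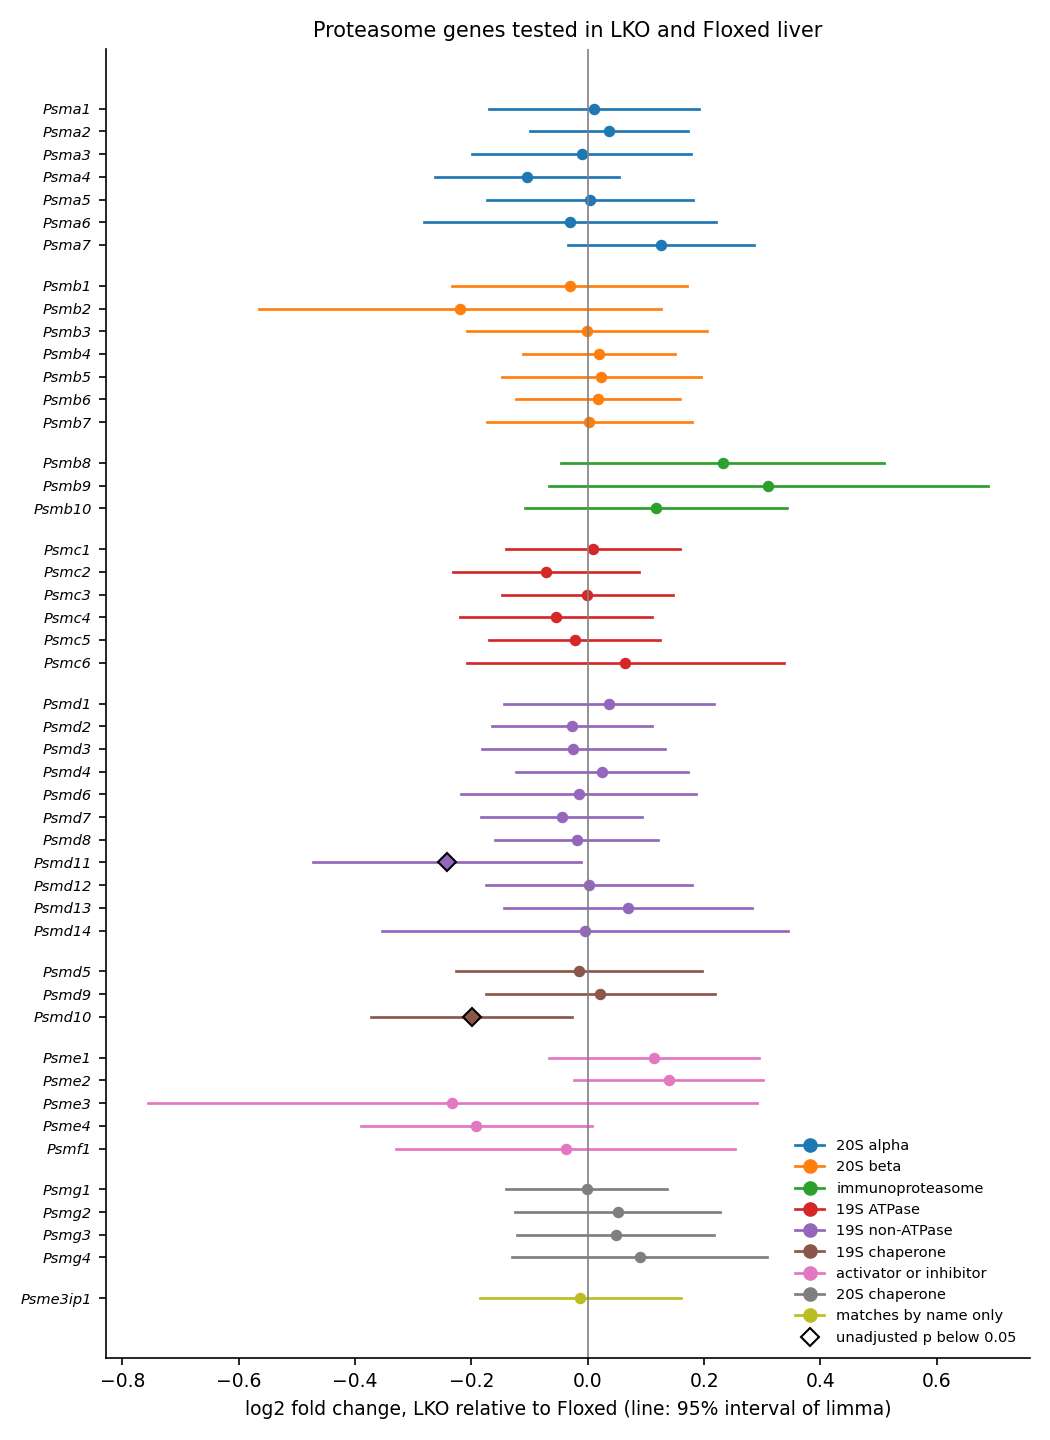
Log2 fold changes of the 47 proteasome genes tested, LKO relative to Floxed (x axis), 1 row per gene grouped by role, with the 95% interval of limma as a line and an outlined diamond for an unadjusted p below 0.05. The 20S and 19S genes crowd around 0, the 3 inducible subunits lie to the right of 0 with intervals that include it, and the 2 diamonds, Psmd11 and Psmd10, lie to the left.

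Differences in the 20S core were small. None of its 14 genes was called, 8 were above and 6 below 0, and their median log2 fold change was 0.0033, a value whose sign turned to -0.0018 under scaling to the 75th percentile. The 7 alpha genes spanned -0.10 for Psma4 to 0.13 for Psma7. Psma4 had values of 12.19 to 12.43 in Floxed and of 12.06 to 12.36 in LKO mice, and 4 LKO mice, all of slide 3, were below the lowest Floxed mouse, while within slide 2 the sign turned to 0.06. Psma7 had 13.42 to 13.65 in Floxed and 13.43 to 13.77 in LKO mice, and 3 LKO mice, all of slide 3, were above the highest Floxed mouse, while the difference within slide 2 was 0.02. Neither alpha gene was called, with adjusted p values in limma of 0.833 for Psma4 and 0.748 for Psma7, and without LKO mouse 2 the value of Psma7 was 0.17, with an unadjusted p of limma of 0.0392, and with normexp background correction it was 0.14, with 0.0449.

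Among the beta genes, Psmb2, a subunit without a catalytic site, had the largest difference. It had a lowest, median and highest log2 intensity of 8.35, 8.80 and 9.05 in Floxed and of 8.22, 8.52 and 8.94 in LKO mice. Both genotypes thus covered much of the same range, and the log2 fold change of -0.22 (SE 0.160) was not called (adjusted p of limma 0.847, exact permutation p = 0.227, two-sided). Within slide 2 Psmb2 differed by -0.51, and with slide as a fixed block that value had an unadjusted p of limma of 0.0833. The other beta genes of the core lay between -0.03 for Psmb1 and 0.02 for Psmb5. Across the core and the 19S particle, 27 of 31 genes were within 0.1 of 0, and the other 4 were Psma4, Psma7, Psmb2 and Psmd11.

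The catalytic subunits were the place where constitutive and inducible forms could be set side by side. Psmb5, which carries the chymotrypsin-like activity, had a lowest, median and highest log2 intensity of 15.56, 15.84 and 15.98 in Floxed and of 15.71, 15.86 and 15.93 in LKO mice. The LKO mice lay inside the range of the Floxed mice, and the log2 fold change was 0.02 (95% interval -0.15 to 0.19). A second Psmb5 probe gave 0.08. Psmb6, which carries the caspase-like activity, had 14.94, 14.97 and 15.09 in Floxed and 14.88, 14.99 and 15.13 in LKO mice, a log2 fold change of 0.02 (-0.12 to 0.16) that turned to -0.012 with normexp background correction. Psmb7, which carries the trypsin-like activity, had 12.61, 12.69 and 12.89 in Floxed and 12.55, 12.70 and 12.92 in LKO mice, a log2 fold change of 0.0025 (-0.17 to 0.18) that turned to -0.0012 under scaling to the 75th percentile and to -0.0094 with normexp, and was 0.14 within slide 2. These intervals leave room for differences of up to about 0.2 on the log2 scale in either direction, and none of the 3 genes was called.

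The inducible subunits all lay on the higher side in LKO liver, and none was called. Psmb8, the counterpart of Psmb5, had a lowest, median and highest log2 intensity of 10.54, 10.72 and 11.10 in Floxed and of 10.54, 11.09 and 11.19 in LKO mice. In 5 of 6 LKO mice Psmb8 was above the Floxed mean, while LKO mouse 4 was as low as the lowest Floxed mouse and Floxed mouse 6 as high as most LKO mice. The log2 fold change of 0.23 (SE 0.129), a fold of 1.17, was not called (adjusted p of limma 0.728, exact permutation p = 0.119, two-sided).

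Psmb9, the counterpart of Psmb6, had a lowest, median and highest log2 intensity of 10.53, 10.82 and 11.26 in Floxed and of 10.49, 11.13 and 11.62 in LKO mice. Its highest value was in LKO mouse 5 and its lowest in LKO mouse 4, below every Floxed mouse. The log2 fold change of 0.31 (SE 0.175), a fold of 1.24, was the largest of the members and was not called (adjusted p of limma 0.730, exact permutation p = 0.130). Psmb10, the counterpart of Psmb7, had 13.02, 13.23 and 13.54 in Floxed and 13.14, 13.37 and 13.62 in LKO mice. The ranges overlapped over most of their width, with a log2 fold change of 0.12 (SE 0.104, adjusted p of limma 0.904).

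Whether Psmb8 and Psmb9 were called turned on single mice. Without LKO mouse 4, which was low in all 3 inducible subunits, the log2 fold changes were 0.32 for Psmb8 (unadjusted p of limma 0.0134) and 0.44 for Psmb9 (0.0103), and without Floxed mouse 6, which was high, they were 0.30 (0.0339) and 0.40 (0.0400). Leaving out any one of the other 10 mice brought neither past the threshold. Within slide 2 the differences were 0.24 for Psmb8, 0.31 for Psmb9 and 0.08 for Psmb10, and when background was corrected with normexp Psmb9 passed the unadjusted threshold at 0.35.

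**Figure D2:**
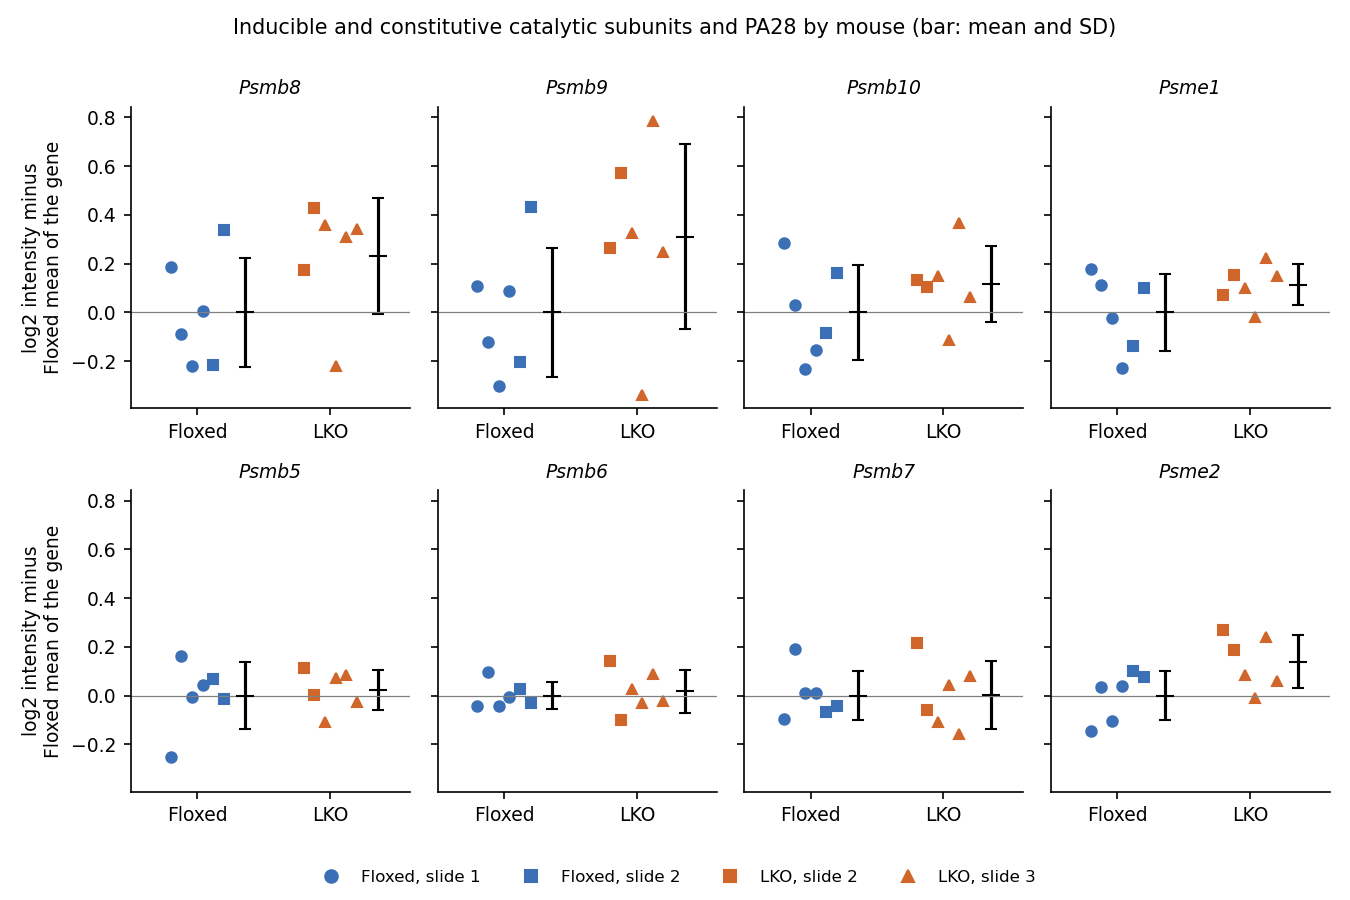
Log2 intensity of each mouse minus the Floxed mean of the gene (y axis) for the inducible subunits Psmb8, Psmb9 and Psmb10 with Psme1 in the upper row and the constitutive subunits Psmb5, Psmb6 and Psmb7 with Psme2 in the lower row; colors stand for genotype, marker shapes for slide, and bars for mean and SD of 6 mice. LKO mouse 4 is the lowest LKO point for Psmb8, Psmb9 and Psmb10, and the constitutive subunits scatter around 0 in both genotypes.

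The balance between inducible and constitutive subunits was followed within each mouse, as the log2 intensity of the inducible gene minus that of its counterpart, centered over the 12 mice. Psmb8 relative to Psmb5 ranged from -0.39 to 0.33 in Floxed and from -0.40 to 0.36 in LKO mice, with means 0.21 apart. Psmb9 relative to Psmb6 ranged from -0.40 to 0.32 in Floxed and from -0.46 to 0.55 in LKO mice, with means 0.29 apart. Psmb10 relative to Psmb7 had means 0.11 apart over all mice and -0.05 within slide 2. For each pair the ranges overlapped and the spread within a genotype was at least about as wide as the difference of the means, and the differences were not tested.

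The upstream sequences of these catalytic subunits are shown because the inducible genes varied together between mice, as described further on. RefSeq windows of assembly GRCm38.p6, from 250 bases before to 50 bases after the start of a gene, were at hand for 42 of the 50 members, among them all of these genes but Psmb7. Each is printed 5′ to 3′ along its gene in lower case, and capitals mark a match to one of the searched motifs on either strand.
Psmb5 (chr14:54617946-54618245, reverse strand): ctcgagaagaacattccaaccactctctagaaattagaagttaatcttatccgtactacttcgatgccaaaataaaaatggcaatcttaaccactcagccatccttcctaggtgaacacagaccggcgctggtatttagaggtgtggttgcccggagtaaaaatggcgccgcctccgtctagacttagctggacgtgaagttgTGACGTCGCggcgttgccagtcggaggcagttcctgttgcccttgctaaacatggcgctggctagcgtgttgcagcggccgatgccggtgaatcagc
Psmb6 (chr11:70525107-70525406, forward strand): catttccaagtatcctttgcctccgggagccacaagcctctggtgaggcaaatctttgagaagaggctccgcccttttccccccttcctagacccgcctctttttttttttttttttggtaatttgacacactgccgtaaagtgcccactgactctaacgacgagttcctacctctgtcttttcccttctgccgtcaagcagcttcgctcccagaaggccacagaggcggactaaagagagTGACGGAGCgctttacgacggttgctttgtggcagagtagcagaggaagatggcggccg
Psmb8 (chr17:34197945-34198244, forward strand): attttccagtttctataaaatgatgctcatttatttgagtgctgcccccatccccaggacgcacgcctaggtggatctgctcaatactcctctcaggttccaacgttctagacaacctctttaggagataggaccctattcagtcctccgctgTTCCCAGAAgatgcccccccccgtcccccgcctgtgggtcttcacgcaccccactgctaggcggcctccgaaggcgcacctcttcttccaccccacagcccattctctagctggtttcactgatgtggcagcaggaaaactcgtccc
Psmb9 (chr17:34187281-34187580, reverse strand): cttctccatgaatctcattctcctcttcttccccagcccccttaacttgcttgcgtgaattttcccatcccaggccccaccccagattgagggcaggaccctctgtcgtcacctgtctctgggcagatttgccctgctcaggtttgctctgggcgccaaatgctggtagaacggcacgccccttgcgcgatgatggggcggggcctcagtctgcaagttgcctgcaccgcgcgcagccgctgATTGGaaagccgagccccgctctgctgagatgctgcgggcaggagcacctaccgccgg
Psmb10 (chr8:105938343-105938642, reverse strand): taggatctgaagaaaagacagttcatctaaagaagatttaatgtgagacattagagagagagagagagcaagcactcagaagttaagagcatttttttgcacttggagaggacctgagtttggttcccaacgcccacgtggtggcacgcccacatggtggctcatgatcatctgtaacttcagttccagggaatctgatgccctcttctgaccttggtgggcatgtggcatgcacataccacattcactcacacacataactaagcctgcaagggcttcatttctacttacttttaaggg
The motifs searched were TGACNNNGC, the core of the antioxidant response element bound by Nfe2l1 and Nfe2l2, GAAANNGAA, a paired site of interferon regulatory factors, TTCNNNGAA, a Stat site that reads the same on both strands and can share letters with the one before, and CCAAT. Psmb5 held TGACNNNGC 47 bases before its start and Psmb6 held it 9 bases before. Psmb8 held TTCNNNGAA 97 bases before its start. Psmb9 held CCAAT on the opposite strand 8 bases before its start, in a window that overlaps that of its neighbor Tap1, a peptide transporter gene, by 275 bases. The Psmb10 window held none of the 4 motifs.

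Over the members the motifs were about as frequent as elsewhere for all but one. TGACNNNGC was found in 6 of 42 member genes (14.3%) and 12.4% of all 32851 windows, in Psmb5, Psmb6, Psmc6, Psmd9, Psmd12 and Psme4. CCAAT was found in 16 member genes (38.1%) and 37.4% of all windows, and TTCNNNGAA in 3 (7.14%) and 8.30%. GAAANNGAA was found in 7 member genes (16.7%) and 8.56% of all windows, in Psmb3, Psmb4, Psmc2, Psmd4, Psmd9, Psme1 and Psmg4, and in none of the inducible subunits. These member shares count genes, some with more than 1 window, while the shares of all count windows. Of the 46 member windows, 13% held TGACNNNGC, 34.8% CCAAT, 6.52% TTCNNNGAA and 15.2% GAAANNGAA. A match is a stretch of letters and not a known site of binding, and these shares were not tested.

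Differences in the 19S particle were small too, apart from Psmd11. Of its 17 genes, 1 was called, 6 lay above and 11 below 0, and the median log2 fold change was -0.016, between -0.24 for Psmd11 and 0.07 for Psmd13. The 6 ATPases of the base, Psmc1 to Psmc6, which pull the substrate into the core, lay between -0.07 for Psmc2 and 0.06 for Psmc6. None of the ATPases was called. Psmd2 and Psmd4, which bind ubiquitin or its carriers, had log2 fold changes of -0.03 and 0.02, and Psmd14, the enzyme that cuts ubiquitin off the substrate, had -0.0044. Psmd14 spread more than most, with an SD of 0.379 in Floxed and 0.193 in LKO mice, and differed by -0.21 within slide 2. Within that slide Psmc2 turned to 0.04 and Psmd4 to -0.06, and Psmd13 and Psmc6 had 0.01 and 0.02. Psmd12 had 0.0019 over all mice by its brightest probe, while its other kept probe gave -0.15 (unadjusted p of limma 0.114). The other kept probes of Psmc1, Psmc2 and Psmc3 gave 0.01, 0.02 and 0.05.

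Psmd11, a scaffold of the 19S lid, was lower in LKO. It had a lowest, median and highest log2 intensity of 11.35, 11.73 and 11.91 in Floxed and of 11.27, 11.42 and 11.77 in LKO mice. Floxed mouse 5 was low among the Floxed and LKO mouse 1 high among the LKO mice, so the ranges overlapped and 2 LKO mice were below the lowest Floxed mouse. The log2 fold change was -0.24 (SE 0.107), with an adjusted p of limma of 0.570 and an unadjusted p of 0.0405 (exact permutation p = 0.0541, two-sided). The call was lost without any one of 10 of the 12 mice, with log2 fold changes between -0.20 without Floxed mouse 1 and -0.25 without Floxed mouse 6, and was kept without Floxed mouse 5 or LKO mouse 1. Within slide 2 the sign turned, with LKO 0.07 above Floxed.

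Among the chaperones that assemble the base of the 19S particle, Psmd10 was lower in LKO and Psmd5 and Psmd9 were not called. Psmd10, also called gankyrin, had a lowest, median and highest log2 intensity of 8.33, 8.46 and 8.58 in Floxed and of 8.12, 8.25 and 8.45 in LKO mice, and 4 LKO mice, all of slide 3, were below the lowest Floxed mouse. The log2 fold change was -0.20 (SE 0.0797), with an adjusted p of limma of 0.505 and an unadjusted p of 0.0262 (exact permutation p = 0.0152, two-sided). Its other kept probe gave 0.06 (unadjusted p of limma 0.484), so the probes of the gene had opposite signs. The difference within slide 2 was -0.09. The call was lost without Floxed mouse 5 (-0.18) and without LKO mouse 3 (-0.17), 5 (-0.17) or 6 (-0.19). Psmd5 and Psmd9 had log2 fold changes of -0.02 and 0.02. Within slide 2 Psmd9 turned to -0.18, and its other kept probe gave -0.04 over all mice.

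**Figure D3:**
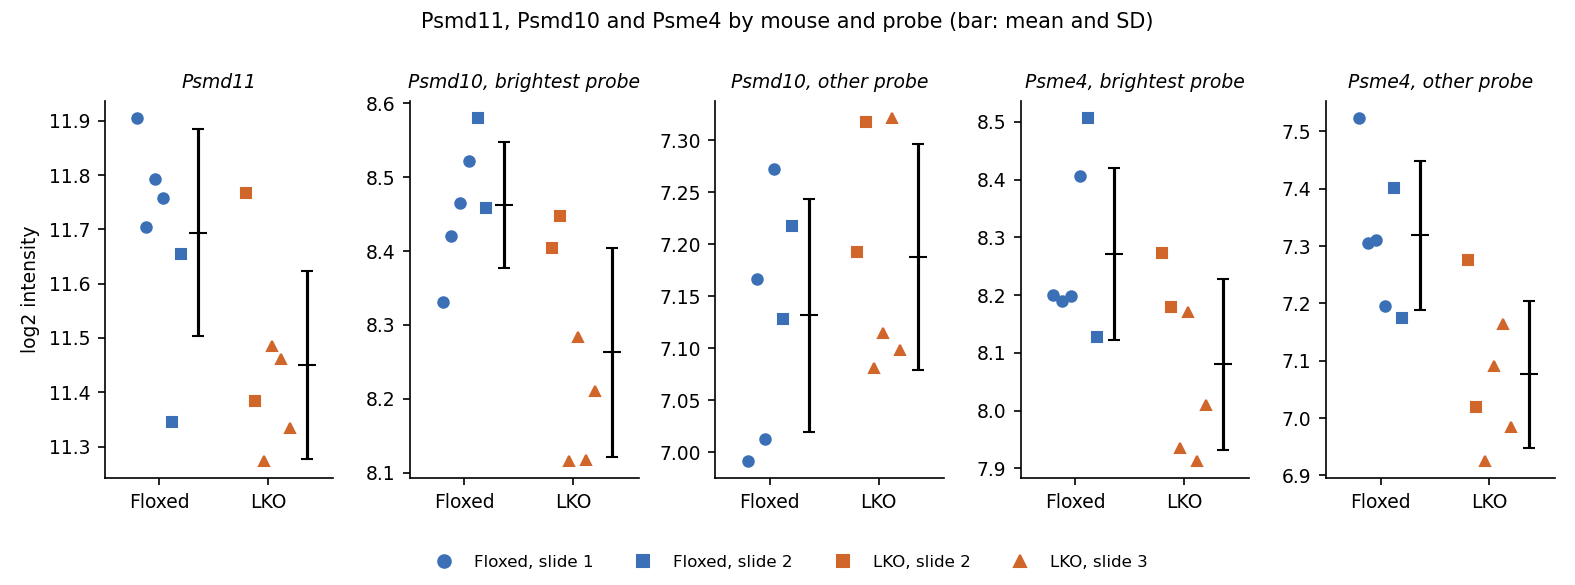
Log2 intensity (y axis, scaled separately in each panel) of Psmd11 and of both kept probes of Psmd10 and Psme4 in each mouse, with color for genotype, marker shape for slide and bars for mean and SD of 6 mice. The brightest Psmd10 probe is lower in the LKO mice of slide 3 while the other probe is not, and both Psme4 probes have lower LKO means with overlapping ranges.

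The activators that replace the 19S cap fell into a pair above 0 and others below. Psme1 and Psme2 form PA28, a ring that opens the core and is induced by interferon together with the inducible subunits. Psme1 had a lowest, median and highest log2 intensity of 13.17, 13.44 and 13.58 in Floxed and of 13.39, 13.53 and 13.63 in LKO mice, a log2 fold change of 0.11 (SE 0.0834, adjusted p of limma 0.852). Psme2 had 14.11, 14.29 and 14.35 in Floxed and 14.24, 14.39 and 14.52 in LKO mice, a log2 fold change of 0.14 (SE 0.0753, adjusted p of limma 0.714, exact permutation p = 0.0519, two-sided). In 5 of 6 LKO mice Psme2 was above the Floxed mean, its second probe gave 0.15, and it was not called by limma, while the methods' t-test placed it below the unadjusted threshold. With the inducible subunits, 5 of 5 of these interferon-inducible genes were higher in LKO on average, and 0 of 5 were called.

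Psme3 and Psme4, activators found mainly in the nucleus, lay below 0 and were not called. Psme4, also called PA200, had a lowest, median and highest log2 intensity of 8.13, 8.20 and 8.51 in Floxed and of 7.91, 8.09 and 8.27 in LKO mice, and 3 LKO mice, all of slide 3, were below the lowest Floxed mouse. Its log2 fold change was -0.19 (SE 0.0923, adjusted p of limma 0.622, exact permutation p = 0.0563, two-sided), and -0.09 within slide 2. The other Psme4 probe gave -0.24 (unadjusted p of limma 0.0136, adjusted 0.413), and the brightest probe passed the unadjusted threshold without Floxed mouse 6 (-0.22) or LKO mouse 1 (-0.23).

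Psme3, the subunit of PA28 gamma, was the most variable member. Its lowest, median and highest log2 intensity was 11.82, 12.34 and 12.69 in Floxed and 11.32, 12.01 and 13.08 in LKO mice. LKO mouse 1 held the lowest and LKO mouse 3 the highest value of all mice. The log2 fold change of -0.23 (SE 0.242, adjusted p of limma 0.932) became -0.43, with an unadjusted p of limma of 0.0323, without LKO mouse 3, and -0.08 without LKO mouse 1, and it was -0.44 within slide 2. Psmf1, which encodes the inhibitor PI31, had 7.04, 7.52 and 7.62 in Floxed and 7.07, 7.48 and 7.68 in LKO mice, a log2 fold change of -0.04 (SE 0.135), with ranges that overlapped almost completely, and -0.23 within slide 2.

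The assembly chaperones of the core, Psmg1 to Psmg4, had log2 fold changes between -0.0020 for Psmg1 and 0.09 for Psmg4. Their median was 0.05, and none was called. Within slide 2 that median turned to -0.02, with Psmg2 at -0.09 and Psmg3 at -0.03, against 0.05 for each over all mice. Psme3ip1, which encodes a protein that binds Psme3, had -0.01. The 3 members that were not well above background on all arrays were Psma8, the alpha subunit of testis, with 1 LKO array, Psmb11, the catalytic subunit of thymus, with 0 arrays, and Psmc3ip, a recombination factor that shares the name only, with 5 Floxed and 6 LKO arrays. These 3 were not tested.

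Taken class by class, the value of a mouse was its mean deviation from the 12-mouse mean over the genes of the class. The 20S core ranged from -0.12 to 0.08 in Floxed and from -0.11 to 0.12 in LKO mice. The 19S particle ranged from -0.09 to 0.11 and from -0.06 to 0.05. The genotypes covered the same values in both classes, with means -0.01 and -0.02 apart. The immunoproteasome ranged from -0.36 to 0.20 in Floxed (mean -0.11 ± 0.214 SD, n = 6) and from -0.33 to 0.38 in LKO mice (mean 0.11 ± 0.243 SD, n = 6), so its difference of 0.22 was about as large as the spread within a genotype, and it was 0.21 within slide 2. PA28 ranged from -0.16 to 0.03 and from -0.08 to 0.17, with 5 LKO mice above the highest Floxed mouse, and differed by 0.14 within slide 2. The median log2 fold change of the 3 inducible genes was 0.23, against 0.0033 in the core and -0.016 in the 19S particle, and it was the highest of the 3 medians when each mouse was left out in turn (0.19 to 0.32, against -0.03 to 0.03 in the core and -0.03 to 0.02 in the 19S particle). With 3 genes, the inducible median was the value of Psmb8, and its range without 1 mouse was the range of Psmb8. It thus describes 1 gene more than a class, while the other medians were over 14 and 17 genes. No test compared the classes.

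**Figure D4:**
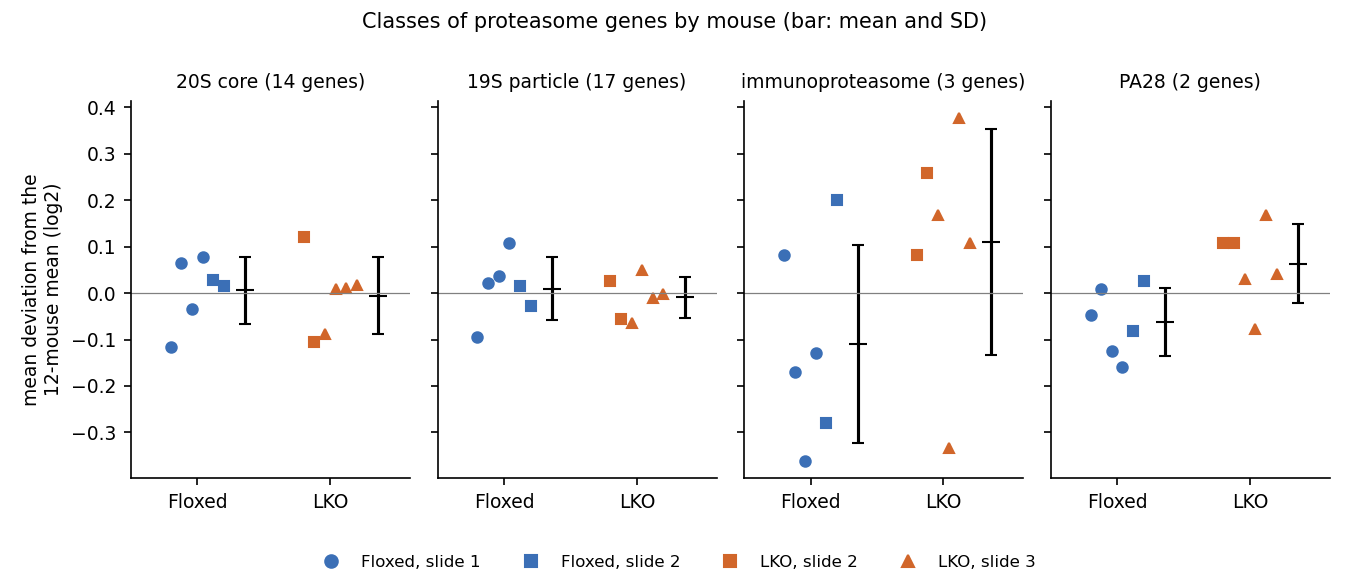
Mean deviation from the 12-mouse mean on the log2 scale (y axis) over the genes of the 20S core, the 19S particle, the immunoproteasome and PA28, 1 point per mouse, with color for genotype, marker shape for slide and bars for mean and SD of 6 mice. Core and 19S values stay between -0.12 and 0.12 in every mouse, while the immunoproteasome spans -0.36 to 0.38 with both genotypes at its lower end.

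The inducible subunits varied together between mice. Psmb8 and Psmb9 had a Pearson r of 0.91 over the 12 mice (permutation p = 0.00014, adjusted over 6 pairs 0.00084) and a Spearman rho of 0.87 (permutation p = 0.00058, adjusted 0.00348). The relation was seen within Floxed (r = 0.97) and within LKO mice (r = 0.84), and r was 0.85 without the 2 mice farthest from the Psmb8 median. Psmb9 and Psmb10 had an r of 0.79 (permutation p = 0.0029, adjusted 0.0087) and a rho of 0.80 (permutation p = 0.00262, adjusted 0.00786), with 0.65 in Floxed, 0.91 in LKO and 0.66 without the 2 farthest mice. Psmb8 and Psmb10 had an r of 0.75 (permutation p = 0.00628, adjusted 0.0126) and a rho of 0.67 (permutation p = 0.0203, adjusted 0.0406), with 0.78, 0.65 and 0.61. The slides held too few arrays for values of their own.

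**Figure D5:**
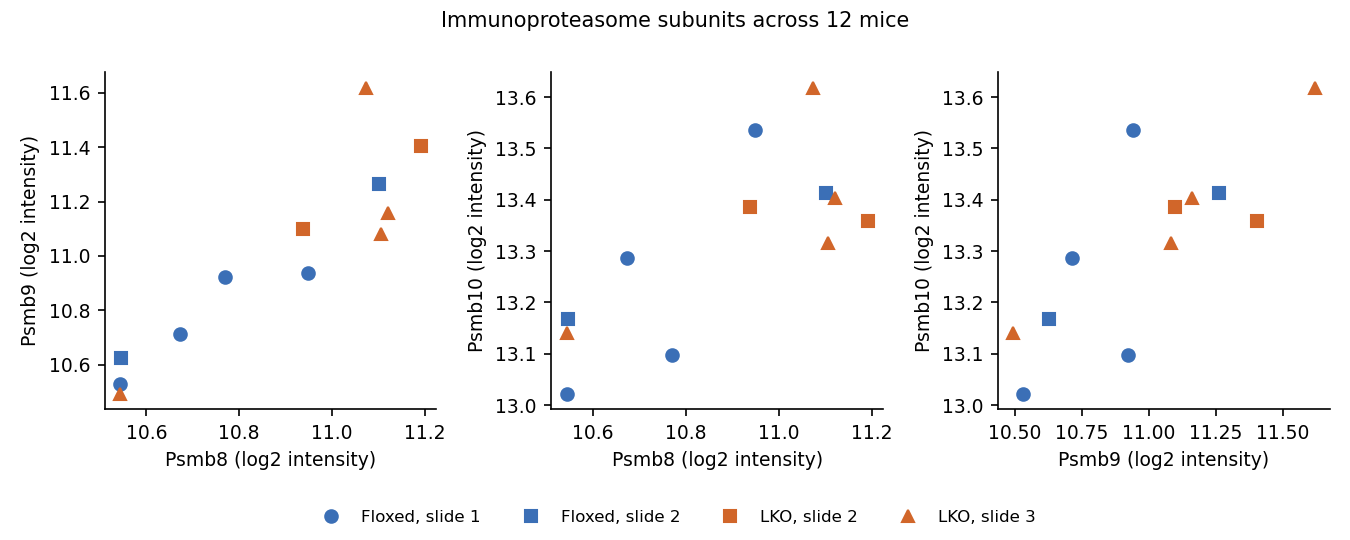
Log2 intensities of Psmb8, Psmb9 and Psmb10 plotted against each other, 1 point per mouse, with color for genotype and marker shape for slide. The points rise together in all 3 panels, most tightly for Psmb8 and Psmb9 (r = 0.91), and mice of both genotypes are found at the lower end.

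The other pairs gave lower correlations after quantile normalization. Psmb5 and Psmb6 had an r of 0.55 (permutation p = 0.0483, adjusted 0.0725) and a rho of 0.64 (permutation p = 0.0279, adjusted 0.0418), with 0.75 in Floxed, 0.45 in LKO and 0.48 without the 2 farthest mice. Psme1 and Psme2 had an r of 0.21 (permutation p = 0.520, adjusted 0.520) and a rho of 0.15 (permutation p = 0.652, adjusted 0.652), with -0.44 in Floxed, 0.55 in LKO and 0.36 without the 2 farthest mice. Psmb9 and Tap1, whose windows overlap, had an r of 0.24 (permutation p = 0.452, adjusted 0.520) and a rho of 0.40 (permutation p = 0.203, adjusted 0.244), with -0.0024, 0.33 and 0.27. The Tap1 probe was dim, at 3.80 to 5.27 in Floxed (SD 0.566) and 4.30 to 5.61 in LKO mice (SD 0.427). Psmb9 had 10.53 to 11.26 and 10.49 to 11.62. With a signal this dim, a low r cannot tell whether Psmb9 and Tap1 vary together. Under scaling to the 75th percentile, the r of Psmb5 with Psmb6 was 0.87 and that of Psme1 with Psme2 was 0.67, while the pairs of inducible subunits kept 0.91, 0.72 and 0.76. As a description over all pairs of genes of a class, the median r over the 12 mice was 0.79 for the 3 inducible genes, 0.34 for the core and 0.09 for the 19S particle. These medians were taken after quantile normalization only. They were not computed under scaling to the 75th percentile, so whether the classes differ in this way under it is not known.

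Of 29 genes of the ubiquitin and proteasome pathway outside the members, 28 were tested and 1 was called, higher in LKO. Over all genes tested, 8.35% were called and 4.92% were called higher. Among them 9 lay above and 19 below 0, and their median log2 fold change was -0.02.

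Partners and transcriptional regulators of the proteasome lay near 0. Pomp, which encodes the chaperone that matures the core, had a log2 fold change of -0.01. Adrm1, a ubiquitin receptor of the 19S particle, and Sem1, its smallest subunit, had -0.03 and 0.02. The deubiquitinase genes Usp14 and Uchl5 had 0.02 and -0.0051, and the transcription factor genes Nfe2l1 and Nfe2l2, which drive proteasome genes under stress, had 0.01 each. Of these, Pomp, Usp14, Nfe2l1 and Nfe2l2 changed sign under at least 1 other scaling or background correction.

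Genes of antigen presentation, which use the peptides of the immunoproteasome, were not called in any of 13 cases, against 8.35% of all genes. They lay above 0 for 8 and below 0 for 5, with a median log2 fold change of 0.04. Tap2, the partner of Tap1 in the peptide transporter, had 0.20, and 0.03 within slide 2. Irf1, a transcription factor induced by interferon, had 0.21, and 0.06 within slide 2. Nlrc5, which activates MHC class I genes, had -0.21.

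Markers of the immune cells that carry the inducible subunits were not called. For all the marker lists here, the share called over all genes was 8.35%, and the lists are short. For leukocytes and macrophages, 8 of 9 markers were tested, 1 lay above and 7 below 0, 0 were called, and their mean deviation ranged from -0.50 to 0.88 in Floxed and from -0.61 to 0.59 in LKO mice. For lymphocytes, 7 of 11 were tested, 2 lay above and 5 below 0, 0 were called, and the ranges were -0.23 to 0.30 and -0.50 to 0.17, while Cd8a, Cd79a and Cd3g were among those not well above background on all arrays. LKO mouse 4, the lowest LKO mouse in the immunoproteasome, was the lowest of all mice in both lists, and Floxed mouse 3, the lowest of all in the immunoproteasome, was the highest in the macrophage list. Markers of stellate cells had 0 of 5 called. Of 5 endothelial markers, 4 lay above and 1 below 0, with a median log2 fold change of 0.06. Only Pecam1 among them was called, higher in LKO (0.70, adjusted p of limma 0.273, and 0.04 within slide 2). Of 7 pancreas acinar markers, 4 were tested, and 3 lay above and 1 below 0. Only Cel among them was called, higher in LKO (0.54, adjusted p of limma 0.273, and 0.27 within slide 2). The part of these cells in the proteasome values was not tested.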

How the data were processed

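Total RNA of liver from 6 Floxed and 6 LKO mice was measured on 12 arrays. The study's methods name the RiboPure kit, whereas the labels name TRIzol and a Promega column, and which was used is not known. The authors deposited the intensity of each spot as Agilent Feature Extraction gives it (version 10.7.1.1 per the file headers, 9.5.1.1 in the submitters' processing notes), a processed intensity with background and spatial trend removed that is not normalized between arrays, raw median intensities of spot and background, and flags for outliers and signal well above background. They also deposited a table of quantile-normalized intensities, which served as an alternative. No spot was saturated (0 in all).

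Here, the 1377 control spots were left out, the processed intensity was taken as log2 and quantile-normalized, outlier spots (0.298%) were set missing, and spots of a probe were averaged. The fit kept the 20404 probes whose signal was well above background on every one of the 12 arrays, since the detection p-value of the study's methods was not at hand, with 0.5 of the spots of a probe as the minimum. RefSeq accessions were matched to a gene table of GRCm38.p6 (94.3% of 28389 probes), and the brightest probe stood for a gene. Several probes were kept for 11 members, and in 6 of them the probes differed in sign. The array was designed on another build, so no probe coordinates are given.

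Genotypes were compared with limma 3.58.1 in R 4.3.3 (lmFit and eBayes, no covariates), all genes in 1 fit. One further gene could not be fitted. Single genes were also compared by an exact permutation test over 924 arrangements, two-sided, whose smallest p is 0.00216, and correlations by 100000 permutations. The code was tested on simulated data. Precision is limited by the number of arrays. Genes named are the catalytic subunits, called members, the 5 members with the largest change, the activators and the inhibitor, undetected members, some partners of the proteasome, called genes of the lists and Phgdh. Psma4, Psma7 and single members of other classes and lists were named after their values were seen, and the other genes of the lists enter the counts only. Members and lists were chosen with earlier results of these data known. Alternatives covered scaling, background, filters, probes, slide, replicate number, thresholds, the methods' t-test and each mouse left out. The other kept probe, and correlations under 75th percentile scaling, were added after seeing the data.

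Same-numbered mice of the genotypes were checked for pairing. Their deviations correlated between -0.24 and 0.32, above 0.1 in 3 of 6, and the labels do not say that a number marks a litter, so the mice were not treated as pairs.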

Additional observations from a re-analysis of the deposited data

Results flagged for a closer look

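Of 68 groups of 6 mice compared, 2 held a mouse that stood apart from the other 5 by Dixon's test at the 95% level, where chance gives 3.4. Adrm1, the ubiquitin receptor gene of the 19S particle, was lowest in Floxed mouse 5 at a log2 intensity of 12.57, with the other Floxed mice between 12.73 and 12.80. The mean deviation of the 19S chaperones was lowest in Floxed mouse 1 at -0.18, with the other Floxed mice between 0.01 and 0.12.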

How the results depend on the processing

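The medians of the 20S core, the 19S particle and the immunoproteasome moved by less than the spread between mice under every scaling, background, filter, probe and slide alternative run. Called genes numbered 2791 of 32524 without the filter on dim probes, and 317 of 16916 with slide as a fixed block. They numbered 88 with a log2 fold change of at least 1 and 0 after adjustment, and the methods' t-test after adjustment called 1. Called members numbered 0 with slide as a fixed block, after adjustment, with a log2 fold change of at least 1 and for the adjusted t-test. The methods' t-test without adjustment called 4 of the 47 members (Psmd10, Psmd11, Psme2 and Psme4), and 1236 of 16916 genes in all. With the replicate number as a block, although pairing was not established, 1428 genes and 1 member (Psmd11) were called, and Psmd10 lost its call (-0.20, unadjusted p of limma 0.0675). Leaving out each mouse gave 1103 to 1838 called genes, 0 to 4 called members, and medians of -0.03 to 0.03 (core), -0.03 to 0.02 (19S particle) and 0.19 to 0.32 (immunoproteasome).

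The sign turned for Psmb6 with normexp (-0.012), for Psmb7 with 75th percentile scaling (-0.0012), normexp (-0.0094), the authors' table (-0.00087) and slide as a random block (-0.0094), for Psmd11 with slide as a fixed block and within slide 2 (0.075 each), for Psmd10 with its other probe (0.056), and for Nfe2l2 with 75th percentile scaling (-0.0019). It also turned for Pomp with normexp (0.025) and slide as a fixed block or slide 2 alone (0.052), for Usp14 with normexp (-0.051), the mean of probes (-0.079) and slide (-0.0075), and for Nfe2l1 with normexp (-0.0045) and slide (-0.083). Without 1 mouse the range spanned 0 for Psmb5 (-0.027 to 0.056), Psmb6 (-0.0073 to 0.042), Psmb7 (-0.040 to 0.040), Psmf1 (-0.116 to 0.026), Adrm1 (-0.060 to 0.0029), Sem1 (-0.0043 to 0.054), Usp14 (-0.023 to 0.060), Uchl5 (-0.042 to 0.037), Nfe2l1 (-0.038 to 0.059) and Nfe2l2 (-0.048 to 0.106). None of these genes but Psmd10 and Psmd11 was called. The call of Psmd10 was also lost with normexp (-0.09), the mean of its probes (-0.07) and slide as a fixed block (-0.09), and that of Psmd11 with normexp (-0.18). Psma7 (0.14) and Psmb9 (0.35) were called with normexp, and Psme4 was called with normexp (-0.18), the mean of its probes (-0.22), no filter on dim probes (-0.19) and slide as a random block (-0.20). Scaling to the 75th percentile ended the call of Phgdh (-0.34). The cause of each was not tested.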
